A study of Mus musculus with 18 samples.

Results

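The genes described here are those of the CD4 and CD8 coreceptors (Cd4, Cd8a and Cd8b1) and of CD5 and CD6, surface proteins of developing T cells. They were chosen by name: every probe whose gene name in the scanner files was 1 of these 5 was taken, which gave 9 probes of the 43426 on the array. Cd8a had 3 probes, Cd8b1 and Cd6 had 2 each, and Cd4 and Cd5 had 1 each. All 9 passed the filter on dim probes in every comparison.

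RNA came from the thymus of C57BL/6 mice given a monoclonal antibody against DLL4, a Notch ligand made by thymic epithelium, or an isotype control antibody, with cells taken 2 weeks later. There were 3 anti-DLL4 and 4 control samples of total thymocytes, 3 and 3 of DN cells (sorted as CD4-CD8-), and 3 and 2 of DN1 cells (sorted as CD4-CD8-CD44+CD25-), each on its own 1-colour Agilent array. The study description counts 3 control thymocyte samples and 4 animals per antibody. The labels hold 4 control thymocyte arrays, all used here, and name no age or sex. Nothing ties an array to an animal, so DN and DN1 cells may come from the animals that gave the thymocytes, and the p-values measure only the spread between these arrays, which may be technical.

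Thymocytes enter the thymus without either coreceptor, pass through a stage with both CD4 and CD8 on the surface, and then keep the one that fits the MHC class their T-cell receptor recognises. CD8 is a pair of chains, encoded by the neighbouring genes Cd8a and Cd8b1; the alpha chain also forms homodimers on some dendritic cells and intraepithelial lymphocytes, while the beta chain is nearly confined to T cells. CD5 and CD6 are related scavenger-receptor proteins, encoded side by side, that dampen T-cell receptor signals and rise on thymocytes that have received one. Notch signals set off by DLL4 are needed for progenitors to enter the T lineage in the thymus.

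What a probe reads depends on where it sits, so the sequences behind the results are shown first, 5′ to 3′, with positions of the mm8 mouse build as the scanner files list them. The Cd4 probe and the Cd8a probe A_52_P150547 are printed whole, and bases 31 to 60 of each 60-base probe are printed for the others. Capitals mark AATAAA, the polyadenylation signal, in the brighter Cd8b1 probe.
Cd4 A_52_P383089, chr6:124833307-124833366, minus strand: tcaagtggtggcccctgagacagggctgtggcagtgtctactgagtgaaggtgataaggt
Cd8a A_52_P150547, chr6:71303400-71303459, plus strand: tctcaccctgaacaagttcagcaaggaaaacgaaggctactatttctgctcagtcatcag
Cd8a A_51_P345121, chr6:71306845-71306904, plus strand: gtgcctcaaactgcaaggaagcaagtggta
Cd8b1 A_51_P150433, chr6:71266583-71266641, plus strand: cagagaagccacctcatgAATAAAagtttt
Cd8b1 A_52_P511269, chr5:115404420-115404479, minus strand: accctggattagtttctttgtcggcgctga
Cd5 A_51_P167263, chr19:10785172-10785190, minus strand: ctgacgccattgaacaaatgaggaggcgat
Cd6 A_51_P313320, chr19:10856446-10856505, minus strand: ctccccacagcgtcagagaactggagggtc
The remaining Cd8a probe, A_52_P443334, lies at chr6:71308426-71308485. The listed interval of the Cd5 probe spans 19 bases and that of the remaining Cd6 probe, A_52_P294977, spans 1257, against a probe length of 60. The files place A_52_P511269 on chromosome 5, while RefSeq (GRCm38.p6) has Cd8b1 on chromosome 6. Exon and UTR annotation of the mm8 build was not used here.

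Levels are log2 of the processed signal minus the 75th percentile of that array's non-control spots, so 0 is the array's own 75th percentile. Levels of different probes are not compared, since probes differ in how well they hybridise. Array strength, the 75th percentile itself, ran from 442.8 to 4295 in anti-DLL4 thymocytes and from 524 to 2468 in control thymocytes. In DN1 cells it ran from 977.7 to 3642 with anti-DLL4 and from 1832 to 2643 in controls. In DN cells it ran from 741.3 to 1077 with anti-DLL4 and from 260.2 to 675.5 in controls, so every treated DN array was brighter than every control DN array. No member spot was saturated or marked as an outlier. Correlations between arrays over all probes ran from 0.754 to 0.955, so no array was a copy of another.

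Differences are anti-DLL4 minus control, on the log2 scale, given relative to the median difference of all probes tested (-0.42 for thymocytes, -0.65 for DN and -0.03 for the DN1 fraction). That median moved with the scaling: to -0.20, -0.02 and -0.06 with quantile normalization, to -0.39, -0.78 and 0.06 when arrays were scaled to probes well above background everywhere, and to 0.16, -1.28 and -0.20 with another background correction (normexp). Calls rest on the unshifted values, with limma and Benjamini-Hochberg adjustment over all probes tested and a threshold of 0.05. In bulk RNA, fewer cells of a type and less RNA per cell cannot be told apart.

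With anti-DLL4, the brightest probes of Cd8a, Cd8b1, Cd5 and Cd6 read below the controls on every DN1 array, and those of Cd8a, Cd8b1 and Cd6 on every DN array. In whole thymocytes the differences of the same 4 probes ran from -0.47 to -0.65. The Cd4 probe read lower on every treated DN array and overlapped in thymocytes and DN1 cells. These are scaled levels, and the treated DN arrays were the stronger ones. Before scaling, the DN signals of the brightest Cd4, Cd8a and Cd6 probes overlapped between antibodies. Those of Cd8b1 did not (9244 to 18310 with anti-DLL4, 29320 to 95040 in controls). Few of the member differences passed the test across all probes. In thymocytes 0 of the 9 probes passed, where 1.16% of all probes passed in either direction, and 2 had an unadjusted p under 0.05, as 14.6% of all probes had. In DN cells 0 of 9 passed, against 3.72% of all probes, and 6 had an unadjusted p under 0.05 (28.8% of all probes), 1 of them the higher A_52_P511269. In DN1 cells 1 of 9 passed, a lower Cd8a probe, against 0.0655% of all probes that passed as lower, and 6 had an unadjusted p under 0.05 (5.22% of all probes). Probes whose treated arrays all lay below all control arrays numbered 4 in thymocytes (8.97% of all probes did so), 7 in DN cells (21.7%) and 7 in DN1 cells (9.55%). In DN cells 1 probe, A_52_P511269, lay wholly above (9.67%). The median difference of the 9 probes was -0.55 for thymocytes, -1.01 for DN and -2.32 for DN1 samples.

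**Figure D1:**
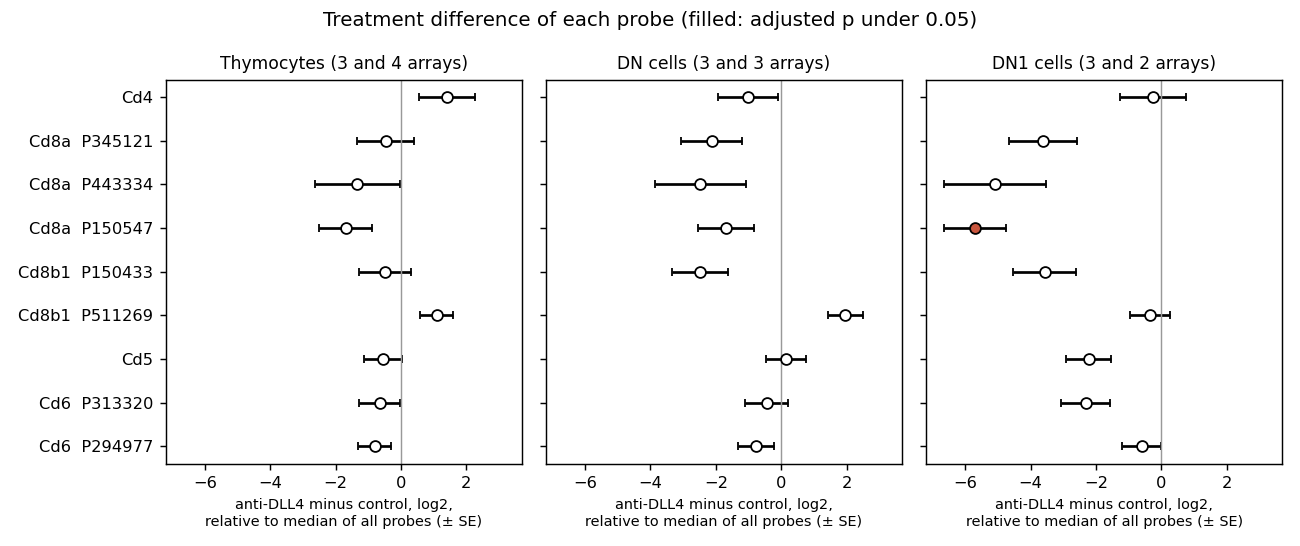
Difference between anti-DLL4 and control arrays for each of the 9 probes in thymocytes, DN and DN1 cells, on the log2 scale relative to the median of all probes tested (points, with standard errors as bars; filled where the adjusted p was under 0.05). The Cd8a probes and Cd8b1 A_51_P150433 lie between -3.57 and -5.70 in DN1 cells, and 1 of them, A_52_P150547, is filled.

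The Cd4 gene encodes the coreceptor that binds MHC class II. Its only probe was dim, with processed signals from 45.57 to 729.8, yet well above background on all 18 arrays. Its level was -2.43, -3.34, -3.13 and -2.82 in control thymocytes and -3.32, -3.25 and 0.72 in anti-DLL4 thymocytes. The last value, replicate 3, stood well above every other thymocyte array, and the remaining arrays of the 2 groups overlapped. In DN cells the level was -0.75, -2.68 and -3.29 in controls and -4.28, -3.53 and -3.89 with anti-DLL4. Control DN replicate 1 was the high array there, and the 2 groups did not overlap. Their unscaled signals did overlap, from 45.57 to 93.32 with anti-DLL4 and from 52.57 to 154.6 in controls. The DN1 levels were -2.94 and -3.97 in controls and -3.22, -3.56 and -4.48 with anti-DLL4, with overlap.

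The Cd4 differences were 1.40 ± 0.86 (SE) in thymocytes (limma adjusted p = 0.613), -1.01 ± 0.92 in DN cells (adjusted p = 0.235) and -0.26 ± 1.02 in DN1 cells (adjusted p = 1). None passed. Without anti-DLL4 replicate 3 the thymocyte difference was 0.30, and the DN1 sign turned with normexp (0.13). Neighbouring groups in the order of Cd4 means, from -1.95 ± 2.31 (SD, n = 3) in anti-DLL4 thymocytes to -3.90 ± 0.38 (n = 3) in anti-DLL4 DN cells, all overlapped. Control thymocytes, in which most cells carry CD4 protein, read -2.93 ± 0.40 (n = 4) and control DN cells, sorted to lack it, -2.24 ± 1.33 (n = 3). The probe did not separate these 2 control groups, and its difference between them was 0.33 ± 0.86 (adjusted p = 0.661). In the treated mice the DN arrays all lay below the thymocyte arrays, with a difference of -2.02 (adjusted p = 0.672, unadjusted p = 0.0495). That size takes in the high thymocyte replicate 3 (0.72). Replicates 1 and 2 read -3.32 and -3.25, near the treated DN range of -4.28 to -3.53.

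The Cd8a gene encodes the CD8 alpha chain, which carries the binding site for the kinase LCK. The levels of its brightest probe, A_51_P345121, were 6.33, 7.84, 6.75 and 6.52 in control thymocytes and 6.14, 6.19 and 5.56 with anti-DLL4. The treated arrays all lay below the controls, by little. In DN cells they were 2.22, 3.25 and 3.79 in controls and 1.40, -1.46 and 0.98 with anti-DLL4. In DN1 cells they were 3.60 and 4.59 in controls and 2.71, 0.21 and -1.58 with anti-DLL4. In both sorted populations every treated array lay below every control array, and the treated arrays were the more spread.

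The differences of this Cd8a probe were -0.47 ± 0.88 in thymocytes (limma adjusted p = 0.652), -2.13 ± 0.94 in DN cells (adjusted p = 0.095) and -3.62 ± 1.05 in DN1 cells (adjusted p = 0.37). None passed the threshold, although the unadjusted p was 0.00961 (DN) and 0.0033 (DN1). Within the slide that held 1 treated and 1 control DN array the difference was -2.75, and within the 2 slides with DN1 pairs it was -3.05 and -6.03. Within the 3 slides with thymocyte pairs it was 0.97, -0.90 and -1.52, so the sign differed between slides.

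The second Cd8a probe, A_52_P443334, tracked the first over the 18 arrays (Pearson r = 0.909, across arrays that share the treatment groups). Its levels in thymocytes were 8.17, 7.94, 6.99 and 6.71 in controls and 5.71, 5.67 and 5.72 with anti-DLL4. In DN1 cells they were 3.78 and 4.22 in controls and 2.72, -0.15 and -5.92 with anti-DLL4. Its DN1 difference of -5.09 ± 1.56 (adjusted p = 0.426) rests in part on the last array and was -2.76 without it. The thymocyte and DN differences were -1.33 ± 1.30 (adjusted p = 0.557) and -2.48 ± 1.39 (adjusted p = 0.156).

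The third Cd8a probe, A_52_P150547, gave the only call. In DN1 cells its level was -1.31 and -1.33 in controls and -4.34, -8.34 and -8.47 with anti-DLL4. The treated arrays were all far below the controls, and on 2 of the 3 the probe was not well above background, so the size there has no measured end. Within the 2 slides with DN1 pairs the difference was -6.69 and -7.01, both from treated arrays where the probe was not well above background. The fitted difference was -5.70 ± 0.96 (limma adjusted p = 0.0323). It missed the threshold when anti-DLL4 replicate 2 or 3 was left out (adjusted p = 0.0696 and 0.0963) or when control replicate 1 or 2 was (adjusted p = 0.19 and 0.324), with the difference between -5.07 and -5.74. It also ended with normexp (-2.21, adjusted p = 1) and when only the DN1 arrays were fitted (-5.70, adjusted p = 0.648).

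In thymocytes the same Cd8a probe, A_52_P150547, read 2.66, 2.10, 2.40 and 1.90 in controls and 0.08, 0.20 and 0.17 with anti-DLL4, groups that lay well apart. Its difference was -1.69 ± 0.81 (limma adjusted p = 0.233, unadjusted p = 0.0188), and -1.42, -1.14 and -2.57 within the 3 slides. In DN cells it read -2.63, -3.68 and -3.71 in controls and -4.91, -6.80 and -5.33 with anti-DLL4, of which -6.80 was not well above background. That difference was -1.70 ± 0.86 (adjusted p = 0.111). The DN1 effect minus the thymocyte effect was -4.0 ± 1.26 (adjusted p = 0.486), and DN1 minus DN was -4.0 ± 1.29 (adjusted p = 0.355). Both sizes take in treated arrays where the probe was not well above background, so they have no measured end. Its unscaled signal in controls was 26.43 to 51.46 in DN cells and 728.5 to 1069 in DN1 cells. Without anti-DLL4 DN1 replicate 1 no treated DN1 array has this probe well above background, so no size or call is given for that set. Over all 9 probes, 0 passed in each of these differences of effects, where 0.0107% (DN minus thymocytes), 0.0893% (DN1 minus thymocytes) and 0.137% (DN1 minus DN) of all probes did. The counts at an unadjusted p under 0.05 were 0, 2 and 1, where 8.46%, 6.82% and 11.6% of all probes had one.

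The Cd8b1 gene encodes the CD8 beta chain, which pairs with the alpha chain on T cells. Its brighter probe, A_51_P150433, read 9.95, 9.73, 7.87 and 7.65 in control thymocytes and 7.0, 7.46 and 9.25 with anti-DLL4. Both groups split into a high and a low set, and they overlapped. In DN cells it read 6.82, 6.96 and 7.14 in controls and 3.78, 4.09 and 3.64 with anti-DLL4. These 2 groups were each tight and lay well apart. In DN1 cells it read 6.35 and 6.59 in controls and 4.96, 2.05 and 1.59 with anti-DLL4, with replicate 1 nearest to the controls.

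Of all member differences in DN cells, that of Cd8b1 had the smallest p: -2.49 ± 0.86, or 5.61-fold lower relative to the median probe, with an adjusted p of 0.0549 that just missed the threshold. It passed with quantile normalization (-3.0, adjusted p = 0.0211), with only the DN arrays in the fit (adjusted p = 0.0372) and without control replicate 3 (-2.34, adjusted p = 0.039), which also took the probes called over the whole array from 1273 to 7984. With normexp the difference was -1.39 (adjusted p = 0.0934), and with slide held as a block -3.14 (adjusted p = 0.0682). Within the slide with a DN pair it was -1.80. In DN1 cells the difference was -3.57 ± 0.96, or 11.9-fold lower (adjusted p = 0.283), and -3.95 and -4.86 within slides. It passed there with array strength as a covariate (adjusted p = 0.0217), a fit added after the data were seen. In thymocytes it was -0.48 ± 0.80 (adjusted p = 0.622), and -1.80, -1.51 and 1.04 within slides. The DN effect minus the thymocyte effect was -1.87 ± 1.18 (adjusted p = 0.617), so a difference between populations was not shown.

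The split of Cd8b1 in thymocytes followed array strength. Its unscaled processed signal stayed between 494300 and 580900 on the 4 control thymocyte arrays while their 75th percentile ran from 524 to 2468. The high Cd8b1 levels (9.95 and 9.73) are those of the 2 dim arrays. Cd6 A_51_P313320 had a like narrow range of signal there, from 199900 to 316100. With array strength as a covariate the thymocyte difference was -0.14 for Cd8b1 (adjusted p = 0.765) and -0.65 for Cd6 (adjusted p = 0.499).

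**Figure D2:**
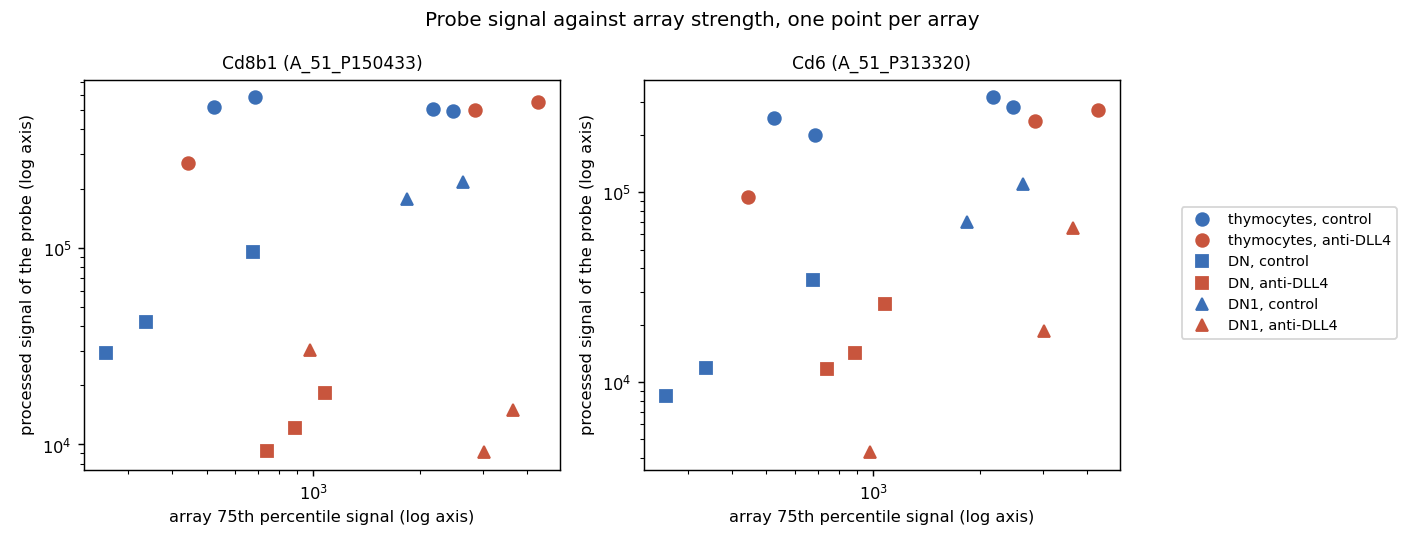
Processed signal of the brighter Cd8b1 probe and the brighter Cd6 probe (log axis) against the 75th percentile signal of the same array (log axis), 1 point per array, with colour for antibody and shape for population. For Cd8b1 the control thymocytes lie on a nearly flat line between 494300 and 580900, while the control DN arrays rise from 29320 to 95040 with array strength.

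The other Cd8b1 probe, A_52_P511269, went against the first, with a correlation of -0.637 over the 18 arrays. It read -3.01, -1.46 and -1.71 in control DN cells and -0.79, -1.02 and -0.44 with anti-DLL4, so the treated arrays were the higher ones. Its differences were 1.96 ± 0.54 in DN cells (limma adjusted p = 0.136), 1.09 ± 0.51 in thymocytes (adjusted p = 0.567) and -0.35 ± 0.61 in DN1 cells (adjusted p = 1). The array holds 2 probes named 2410014A08Rik within 5000 bases of its listed chromosome 5 position, at 2022 and 4115 bases, and these correlated with it at 0.744 and 0.678. What transcript it reads was not tested, and no statement about Cd8b1 itself is drawn from it. It remains 1 of the 9 probes in the counts and medians given over all 9.

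**Figure D3:**
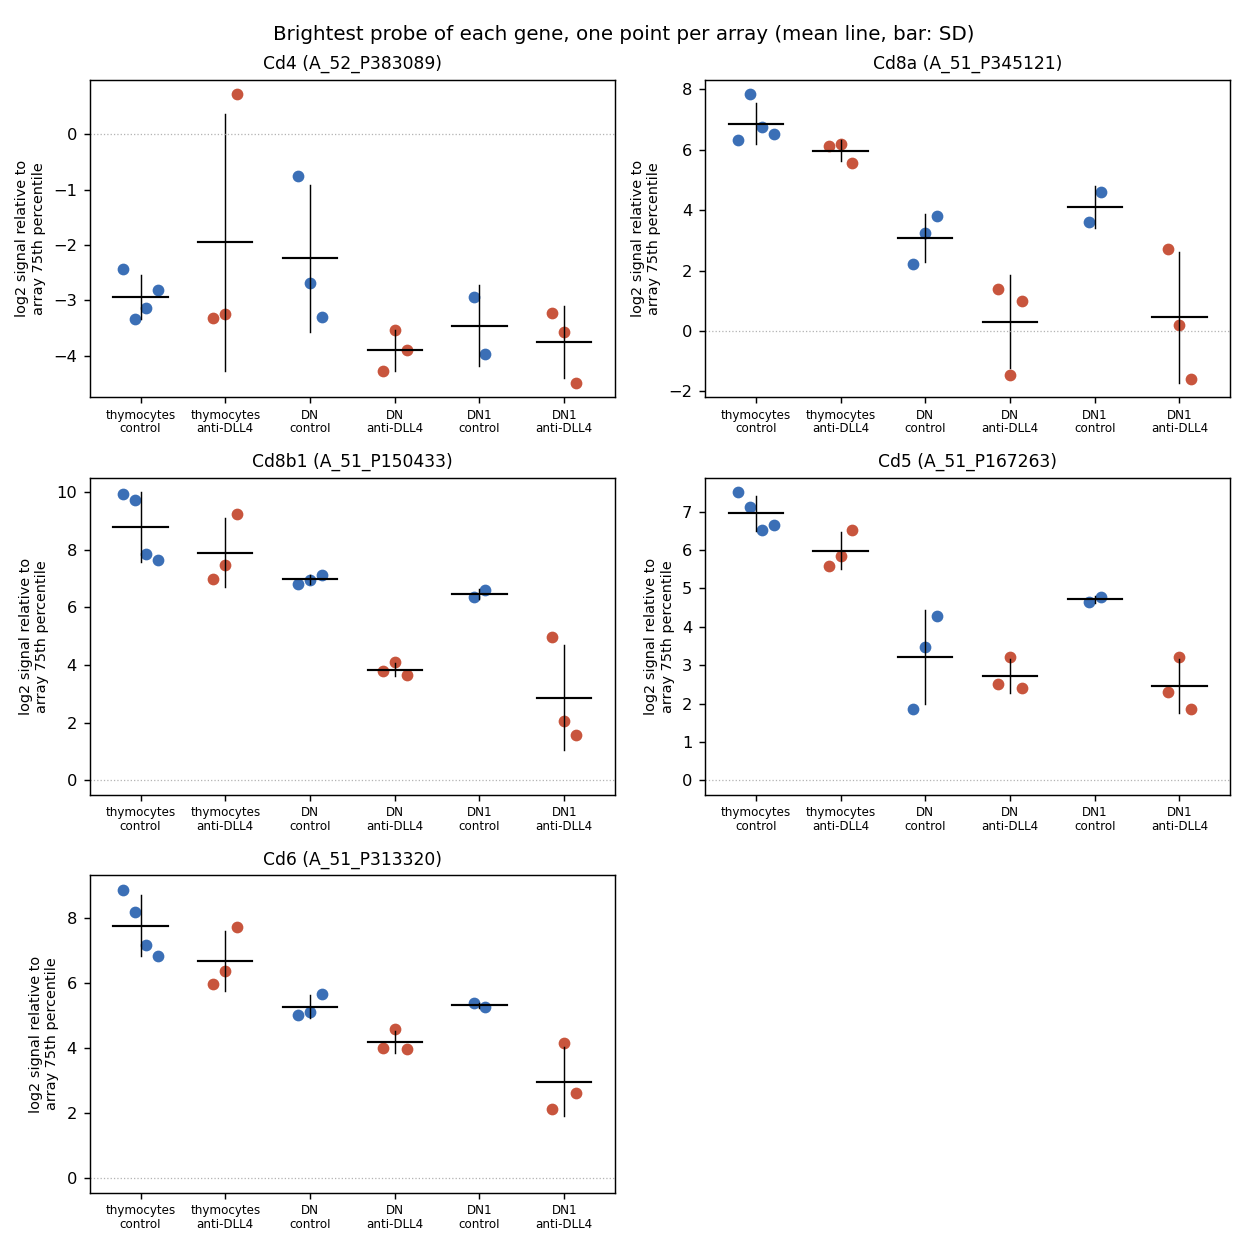
Level of the brightest probe of each gene (log2 signal relative to the array's 75th percentile) in the 6 groups, 1 point per array, with the group mean as a line and its SD as a bar. Cd8a, Cd8b1, Cd5 and Cd6 have their highest means in thymocytes, whose arrays lie between 5.56 and 9.95, while Cd4 lies between -4.48 and 0.72, with neighbouring groups overlapping.

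CD5 sets a brake on T-cell receptor signals. The Cd5 probe read 7.51, 7.11, 6.53 and 6.66 in control thymocytes and 5.59, 5.84 and 6.52 with anti-DLL4. The treated arrays lay just below the controls. In DN cells it read 1.87, 3.48 and 4.29 in controls and 2.50, 3.22 and 2.41 with anti-DLL4, inside the control range. The DN1 arrays read 4.65 and 4.78 in controls and 2.29, 3.22 and 1.85 with anti-DLL4, all lower.

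The Cd5 differences were -0.55 ± 0.57 in thymocytes (limma adjusted p = 0.458), 0.14 ± 0.61 in DN cells (adjusted p = 0.595) and -2.23 ± 0.68 in DN1 cells, or 4.69-fold lower (adjusted p = 0.41, unadjusted p = 0.00444). None passed. The unshifted DN difference, on which the test rests, was -0.51. Relative to the median, the DN value had no stable sign: it was -0.61 with quantile normalization, -0.67 without control replicate 1 and -0.18 without anti-DLL4 replicate 2. Within slides the DN1 differences were -1.08 and -2.80, the DN difference 2.27, and those in thymocytes -0.76, -0.52 and -0.35. The DN1 effect minus the DN effect was -2.36 ± 0.91 (adjusted p = 0.45).

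CD6 binds ALCAM on thymic epithelium and antigen-presenting cells. Its brighter probe, A_51_P313320, read 8.88, 8.19, 7.19 and 6.83 in control thymocytes and 5.98, 6.37 and 7.73 with anti-DLL4, with overlap. In DN cells it read 5.02, 5.13 and 5.68 in controls and 4.00, 4.59 and 3.99 with anti-DLL4. The DN1 arrays read 5.38 and 5.26 in controls and 2.13, 4.16 and 2.63 with anti-DLL4. The treated arrays of both sorted populations lay below the controls.

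The Cd6 differences were -0.65 ± 0.62 in thymocytes (limma adjusted p = 0.45), -0.44 ± 0.66 in DN cells (adjusted p = 0.28) and -2.32 ± 0.74 in DN1 cells, or 4.98-fold lower (adjusted p = 0.472, unadjusted p = 0.00611). None passed, and the DN sign turned with normexp (0.63). Within slides they were -1.74, -1.05 and 0.21 in thymocytes, 0.50 for the DN pair and -0.88 and -2.49 for the DN1 pairs. The dimmer Cd6 probe, A_52_P294977, ran from -4.23 to -1.04 over the 18 arrays and correlated with the first at 0.733. Its differences were -0.80 ± 0.51, -0.78 ± 0.55 and -0.61 ± 0.61 in the same order (adjusted p = 0.284, 0.119 and 1).

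**Figure D4:**
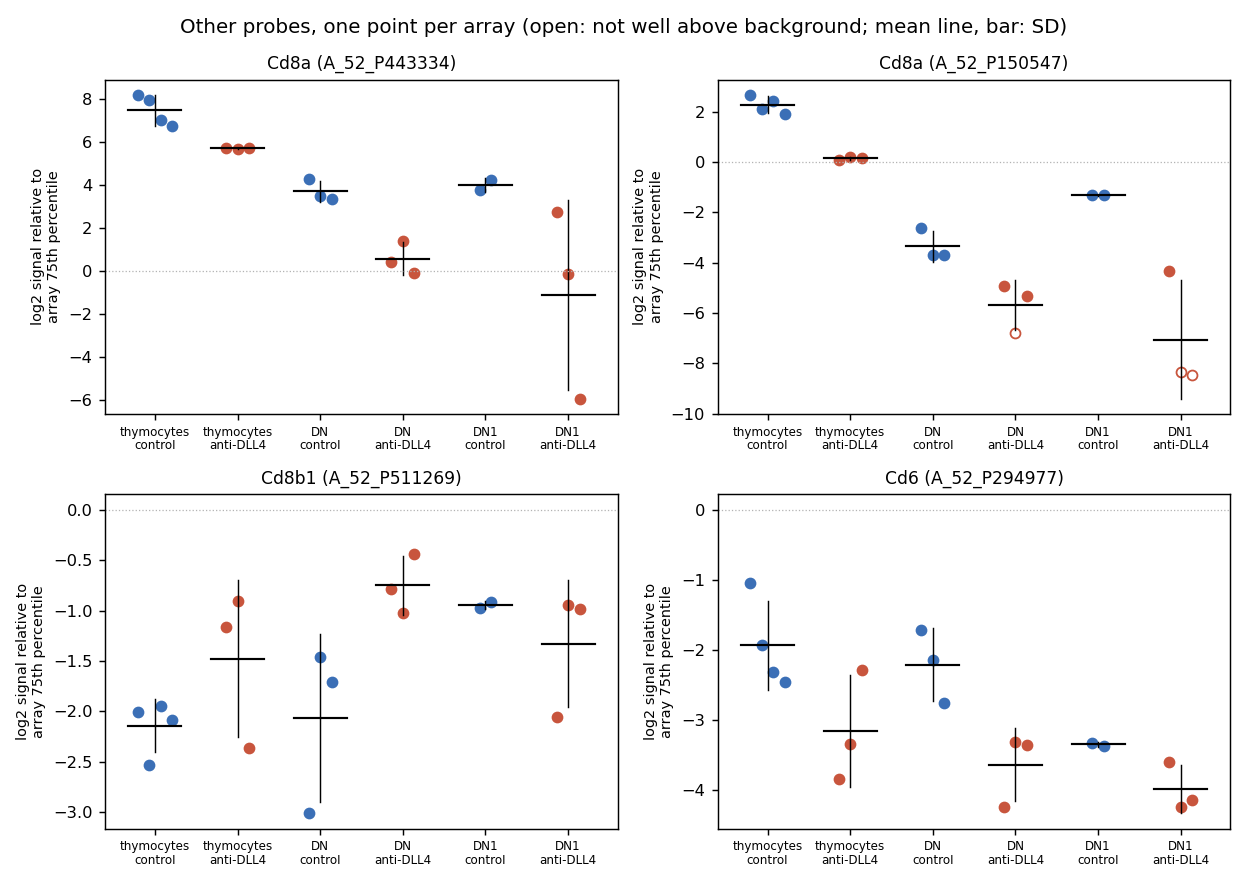
Levels of the other 4 probes (log2 signal relative to the array's 75th percentile) in the 6 groups, 1 point per array, open where the spot was not well above background, with the group mean as a line and its SD as a bar. Cd8a A_52_P150547 falls from between 1.90 and 2.66 in control thymocytes to -8.47 in anti-DLL4 DN1 cells. Cd8b1 A_52_P511269 has its lowest mean in control thymocytes (-2.14) and its highest in anti-DLL4 DN cells (-0.75), with neighbouring groups overlapping.

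Control DN cells were set against unsorted control thymocytes, to compare cells sorted to lack both coreceptors with the whole preparation. Markers of other cell types, listed below, differed too. Of those tested, 3 of 7 for macrophages and 1 of 9 for CD8-type dendritic cells passed as lower in DN cells. For B cells 1 of 7 passed as higher. Stage and cell make-up cannot be told apart here. The sort removed cells with CD4 or CD8 protein, so for the coreceptor genes this is a check of the sort, and Cd5 and Cd6 are the genes it can inform on. In all, 2 of the 9 probes passed as lower (Cd5 and the sort gene Cd8a, by A_52_P150547), where 0.758% of all probes passed as lower, and 6 had no overlap (7.11% of all probes). Cd5 fell by 4.10 ± 0.57 relative to the median probe, or 17.1-fold (limma adjusted p = 0.00623). Its mean was 6.95 ± 0.45 (SD, n = 4) in thymocytes and 3.21 ± 1.23 (n = 3) in DN cells. The call was kept on leaving out any 1 array (adjusted p from 0.00241 to 0.0336), but not in a fit that held slide as a block (-4.27, adjusted p = 0.135), with only these arrays in the fit (adjusted p = 0.06) and without the 2 dimmest control DN arrays (-2.57, adjusted p = 0.322). The 1 slide that held an array of each group gave -2.58 for Cd5 and -1.35 for Cd6.

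Cd6 A_51_P313320 differed by -2.85 ± 0.62 on the same scale (7.21-fold lower, limma adjusted p = 0.0658), which did not pass, and it passed with quantile normalization (-1.92, adjusted p = 0.0278), with normexp (-4.25, adjusted p = 0.0283) and without control DN replicate 3 (-3.13, adjusted p = 0.0289). The dimmer Cd6 probe, A_52_P294977, differed by -0.62 ± 0.51 (adjusted p = 0.782). In the treated mice, 3 of 9 probes passed as lower in DN cells than in thymocytes, where 0.25% of all probes did: Cd5 and 2 probes of the sort gene Cd8a. Without overlap and lower were 7, against 6.7% of all probes. There Cd5 fell by 3.34 ± 0.61 (adjusted p = 0.0304), a call that was lost on leaving out any 1 of the 6 arrays (adjusted p from 0.0577 to 0.144), while its 2 within-slide values were -3.39 and -3.75. Cd6 A_51_P313320 differed by -2.57 ± 0.66 (adjusted p = 0.18).

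In the control sorted cells, the brightest Cd8a and Cd8b1 probes were well above background on every array. Cd8b1 A_51_P150433 read 6.97 ± 0.16 (SD, n = 3) in control DN cells against 8.80 ± 1.21 (n = 4) in control thymocytes, a difference of -2.18 ± 0.80 (SE, adjusted p = 0.225). Cd8a A_51_P345121 read 3.09 ± 0.80 and 6.86 ± 0.68 in the same groups (difference -4.13 ± 0.88, adjusted p = 0.0518). Control DN1 cells, the earliest of the DN cells, read 6.47 ± 0.17 (n = 2) for Cd8b1 and 4.10 ± 0.70 (n = 2) for Cd8a. The part of other cells in these preparations was not tested.

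Control DN1 against control DN cells gave 0 of 9 calls, where 1.1% of all probes passed, and 1 probe had an unadjusted p under 0.05, as 19% of all probes had. Of the 9, 3 lay wholly higher in DN1 cells (12.7% of all probes) and 2 wholly lower (24.3%). Cd5 was 2.16 ± 0.68 higher in DN1 cells relative to the median probe (limma adjusted p = 0.257), and its arrays did not overlap. Within 2 slides it was 3.5 and 2.07. Leaving out the 2 dimmest control DN arrays brought that to 0.69. In anti-DLL4 cells all 9 probes overlapped between DN1 and DN cells (6.77% of all probes lay wholly lower and 5.03% wholly higher), with 0 of 9 calls, 0 at an unadjusted p under 0.05, and 0% of all 35175 probes tested passing (1525 at an unadjusted p under 0.05). The largest of those differences for a brighter probe was Cd6, at -1.22 ± 0.66 (adjusted p = 0.991).

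By the brightest probes, the order of group means was alike for Cd8a, Cd8b1, Cd5 and Cd6 at both ends: control thymocytes highest, then anti-DLL4 thymocytes, and the treated sorted cells lowest. For Cd8b1 anti-DLL4 thymocytes overlapped with both control thymocytes above and control DN cells below. The 2 thymocyte groups overlapped for Cd6 too, and for Cd8a control DN cells overlapped with anti-DLL4 DN1 cells. By the dimmer Cd6 probe control DN cells stood above anti-DLL4 thymocytes. The order in between differed. For Cd5, anti-DLL4 thymocytes (5.98 ± 0.48) were followed by control DN1 (4.72 ± 0.09), control DN (3.21 ± 1.23), anti-DLL4 DN (2.71 ± 0.44) and anti-DLL4 DN1 cells (2.45 ± 0.70, SD). The last 3 overlapped with a neighbour. For Cd6, control DN1 (5.32 ± 0.08) and control DN cells (5.28 ± 0.35) could not be ordered, and for Cd8b1 neither could anti-DLL4 DN (3.84 ± 0.23) and anti-DLL4 DN1 cells (2.87 ± 1.83).

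Marker genes of other cell types moved with the antibody in the same samples. Summed over the 9 T-lineage markers (Cd3e, Cd3g, Cd3d, Cd247, Lck, Tcf7, Bcl11b, Lat and Zap70), the linear level relative to the 75th percentile was 304 to 431 in anti-DLL4 and 482 to 1310 in control thymocytes. It was 88.2 to 243 against 358 to 701 in DN cells and 37 to 87 against 217 to 333 in DN1 cells. The treated sums were below the controls in all 3 populations, while 0 of the 9 markers passed as lower in thymocytes, 1 in DN and 0 in DN1 cells. Relative to the median of all probes, Zap70 differed by 0.42 in thymocytes and 0.81 in DN cells (limma adjusted p = 0.997 and 0.89). The sum over 8 B-cell markers ran the other way, from 67.9 to 252 against 21.4 to 36 in thymocytes and from 460 to 558 against 33.8 to 41.2 in DN cells, with 5 and 7 of the 8 passing as higher. In DN1 cells it was 283 to 431 against 174 to 303, and 0 of 8 passed. Of all probes tested, 323 of 34920 in thymocytes, 798 of 34253 in DN and 16 of 36661 in DN1 cells passed as higher.

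Dendritic cells can carry CD8 alpha without beta. The summed level of 9 markers of CD8-type dendritic cells was 80.7 to 92 with anti-DLL4 against 25 to 52.6 in control thymocytes, 90.9 to 111 against 10.4 to 16.1 in DN cells, and 50.5 to 130 against 60.5 to 105 in DN1 cells. The sum was higher in treated thymocytes and DN cells and overlapped in DN1 cells. Of the 9 markers 1 passed as higher in thymocytes (Itgae), 3 in DN (Irf8, Itgax and Itgae) and 0 in DN1 cells. Batf3 and Clec9a did not pass in DN cells (limma adjusted p = 0.132 and 0.212). Relative to the median of all probes, Xcr1 and Zbtb46 differed by -1.24 and -1.30 in DN cells (limma adjusted p = 0.142 and 0.109). The sums of plasmacytoid dendritic cell (8), NK and innate lymphoid (8) and macrophage markers (7) were 502 to 525, 120 to 159 and 58.2 to 106 in anti-DLL4 DN cells. In control DN cells they were 63.5 to 349, 23.6 to 66.5 and 22.4 to 45.9. Of these markers 3, 4 and 3 passed as higher in treated DN cells and 0 as lower. The plasmacytoid markers that passed were Spib, Tlr7 and Irf7. Siglech, Bst2, Tcf4 and Ly6d did not (limma adjusted p = 0.314, 0.645, 0.18 and 0.212). The macrophage marker Mertk and the plasmacytoid marker Tlr9 went the other way, by -3.89 and -0.46 (limma adjusted p = 0.111 and 0.268). In thymocytes the 3 sums were 155 to 310, 210 to 467 and 155 to 375 with anti-DLL4 and 113 to 258, 36.7 to 101 and 89.4 to 410 in controls, and in DN1 cells 239 to 351, 52.3 to 113 and 44.2 to 61.5 against 165 to 225, 138 to 150 and 102 to 142. Of the defining markers, the B-lineage factor Pax5 stayed below that mark on every control thymocyte array, as did Siglech, a plasmacytoid dendritic cell receptor, on every control DN array. The part of these cell types in the member differences was not tested.

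A list of 23 other genes, named here for the double-positive stage though not confined to it, was followed. All of them were measured (Cd5 and Cd6 not among them). In thymocytes 0 of 23 passed, with a median of -0.93 relative to the median of all probes and 18 below it. The smallest p there were those of Plxnd1, a semaphorin receptor of cortical thymocytes, at -1.53 (limma adjusted p = 0.0589), and Trat1, an adaptor of the T-cell receptor, at -1.85 (adjusted p = 0.0911). Plxnd1 passed without anti-DLL4 replicate 3 (-1.80, adjusted p = 0.0207). In DN1 cells 0 of 23 passed, with a median of -1.33, and those of smallest p were Ccr9, a chemokine receptor of thymocytes, at -4.71 (adjusted p = 0.0978) and Tcf7 at -2.91 (adjusted p = 0.164).

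In DN cells 2 of the 23 passed as higher and 5 as lower, with a median of -0.50. Of all 34253 probes tested there, 798 passed as higher and 475 as lower. Cd69, an activation marker that B and NK cells carry too, was 3.72 ± 0.51 higher (limma adjusted p = 0.00365), and 2.86 higher (adjusted p = 0.186) without the 2 dimmest control arrays. Tcf7, a T-lineage transcription factor, fell by 2.10 ± 0.60 (adjusted p = 0.0196), Themis, a regulator of thymocyte selection, by 2.29 (adjusted p = 0.0405), and Ptcra, which encodes the pre-T-cell receptor alpha chain, by 2.78 (adjusted p = 0.0456). Each of these 3 calls was lost without anti-DLL4 DN replicate 1 (adjusted p = 0.0782 for Tcf7, 0.103 for Themis and 0.11 for Ptcra) or 3 (0.0989, 0.153 and 0.161), and without control DN replicate 1 (0.0521, 0.141 and 0.077) or 2 (0.0633, 0.0637 and 0.154). With slide held as a block all 4 missed the threshold (adjusted p = 0.0576 for Cd69, 0.0733 for Tcf7, 0.1 for Themis and 0.116 for Ptcra). Over the 17 alternatives run, the call was lost in 4 for Cd69, 9 for Tcf7 and 11 each for Themis and Ptcra.

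Between control DN cells and control thymocytes, 5 of the 23 passed, all lower in DN cells, with a median of -1.44. Of all probes 0.758% passed as lower. The differences were -4.06 for Plxnd1, -3.91 for Bcl6, a transcriptional repressor, and -3.25 for Cd2, an adhesion receptor (limma adjusted p = 0.00279, 0.00321 and 0.0209). Cd2 missed the threshold without control DN replicate 1 or 2 (adjusted p = 0.0686 and 0.103) or control thymocyte replicate 1 or 2 (0.0515 and 0.0691). With slide held as a block none of these 3 passed (limma adjusted p = 0.111, 0.107 and 0.17), nor did they without the 2 dimmest control DN arrays (adjusted p = 0.0985, 0.239 and 0.409). In the treated mice 2 of the 23 passed, both lower in DN cells, where 0.25% of all probes passed as lower. Among the 2 was Themis at -3.88 (limma adjusted p = 0.0429). Its call was lost on leaving out any 1 of the 6 arrays (adjusted p from 0.0506 to 0.222) and with slide held as a block (0.241).

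Transcription factors and chromatin proteins known to control Cd4 and Cd8 expression formed a list of 15, all measured, of which Tcf7, Lef1 and Bcl11b are also in the previous list. In thymocytes and DN1 cells 0 of 15 passed, with medians of -0.28 and -0.33. The smallest p in thymocytes were those of Myb at -1.60 (limma adjusted p = 0.134) and Mta2 at -1.10 (adjusted p = 0.184), and in DN1 cells those of Tcf7 and of Tox, a factor needed for the CD4 lineage, at -2.40 (adjusted p = 0.673). In DN cells Tcf7 alone passed, with a median of -0.10 over the list. The medians were thus nearer to that of all probes than those of the double-positive list, without a test of that difference.

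Partners of CD5 and CD6 and proximal T-cell receptor signalling genes made a list of 22, all measured, some of which (the CD3 chains, Cd247, Lck, Lat and Zap70) are T-lineage markers too. None passed in thymocytes, DN or DN1 cells, with medians of 0.24, 0.27 and -0.91, and 20 of the 22 below the median of all probes in DN1 cells. In thymocytes the smallest p were those of Ubash3b, a phosphatase that dampens receptor signals, at 3.08 (limma adjusted p = 0.0723) and Alcam, the CD6 ligand, at 2.77 (adjusted p = 0.126). Ubash3b passed without control replicate 4 (3.56, adjusted p = 0.0417). In DN cells they were Cd3g, a chain of the receptor complex, at -1.22 (adjusted p = 0.0709) and the adaptor Lat at -1.35 (adjusted p = 0.0937). In DN1 cells they were Cd247, which encodes the zeta chain, at -3.06 (adjusted p = 0.129) and the kinase Zap70 at -2.38 (adjusted p = 0.468). With quantile normalization Cd3g, Lat (DN) and Cd247 (DN1) passed, at adjusted p = 0.0361, 0.0404 and 0.0375.

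The genes whose pattern over the 18 arrays was most like each member were found among 14324 genes whose brightest probe was well above background on all arrays. For Cd8b1 these were Ldhb and Nsg2 (Pearson r = 0.957 for both), Chrna9 (0.955), Ccr9 (0.937) and Ppp1r3b (0.933). For Cd8a they included 2610019F03Rik (0.954), Nhsl1 (0.93), Chrna9 (0.91) and A430093F15Rik (0.907), so Chrna9 stood in both. For Cd5 they included Mr1 (0.956), Ankrd50 (0.937), C1qc (0.933) and Gpr162 (0.929), and for Cd6 Klf3 (0.965), Dok2 (0.964), 2610027C15Rik (0.96), A130092J06Rik (0.955) and Tsc22d4 (0.955). Cd5 and Cd6 correlated with each other at 0.925, Cd8a and Cd8b1 at 0.897. Cd4 stood apart, with Dlgap3 (0.921), the transcript listed as NAP057269-1 (0.885) Bzrpl1 (0.876), Kcnk4 and Tmepai (both 0.867) as its nearest and no member above 0.558. The arrays share 6 groups and differ in strength, so these values describe these arrays only.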

How the data were processed

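The values deposited by the authors are Cy3 intensity per spot, already corrected for background by the scanner software (Agilent Feature Extraction, release 9.5.3.1 in the file headers and 9.5 in the submitters' processing notes) but not scaled across arrays. The labels' protocols describe 2 rounds of RNA amplification, which can widen the spread of levels. A deposited series table holds a ratio per probe and array, with its centre and scale not stated, and served as an alternative. The deposited spot flags gave the spots well above background.

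Each of 18 arrays (44954 spots, 43537 not controls) was scaled to its 75th percentile. Spots of 1 probe were averaged. A probe entered a comparison when 2 or more arrays of its groups had it well above background. limma 3.58.1 (R 4.3.3) fitted 6 group means to 38962 probes, and the code was tested on simulated data. All p are two-sided. With 2 to 4 arrays per group, the number of arrays limits the precision.

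The members, lists and tests were chosen with earlier results of these data known. All member probes are named. Of each list, by its genes' brightest probes, up to 4 called genes of smallest p are named, or else the 2 of smallest p, and for each member the 5 genes most like it. A gene that this rule would name is not reported here. The alternatives were another scaling, background correction, filter, slide or replicate number as a block, fewer arrays, and the deposited ratio. The list genes, named through RefSeq (GRCm38.p6) where the file has an older symbol, were all found.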

Additional observations from a re-analysis of the deposited data

How the results depend on the processing

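The number of member probes past the threshold stayed at 0 under each alternative run in thymocytes. In DN cells it went from 0 to 1 with quantile normalization and with only the groups compared, and lay between 0 and 1 with 1 array left out. In DN1 cells it went from 1 to 0 with normexp, with only probes well above background on all arrays (which leaves out the called probe), with the replicate block and with only the groups compared, to 2 with array strength as a covariate, and lay between 0 and 1 with 1 array left out. For control DN cells against thymocytes it went from 2 to 5 with normexp and to 0 with the slide as a block or without the 2 dimmest arrays (2 to 4 with 1 array left out). For treated DN cells against thymocytes it went from 3 to 5 with quantile normalization and to 0 with the slide block (0 to 2 with 1 array left out). For control DN1 against DN cells it went from 0 to 1 with quantile normalization, and for the DN1 minus thymocyte effects it lay between 0 and 1 with 1 array left out. The cause of these changes was not tested beyond what each alternative leaves out.

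Signs turned for Cd5 in DN cells (-0.61 with quantile normalization, -0.32 with only probes above background on all arrays, -0.06 with the strength covariate, -1.25 without the 2 dimmest control arrays, -0.67 to 0.74 with 1 array left out), Cd6 there (0.63 with normexp) and Cd4 in DN1 cells (0.13 with normexp, 0.03 with the replicate block, -0.70 to 0.20 with 1 array left out). They also turned for Cd8b1 A_52_P511269 in DN1 cells (-0.67 to 0.20 with 1 array left out) and for the DN minus thymocyte effect of Cd8a A_52_P150547 (-0.63 with the slide block, -0.28 to 0.65 with 1 array left out). None of these values was past the threshold.

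Deviations of same-numbered treated and control arrays from their group means were only weakly correlated (r from -0.225 to 0.268). With so few arrays per group, these values cannot decide whether the numbers pair the samples. With the replicate block the DN1 call of Cd8a A_52_P150547 was lost (-5.07, adjusted p = 0.334), and the probes called over the whole array, not the member probes, went from 404 to 68 in thymocytes, from 1273 to 402 in DN and from 40 to 0 in DN1 cells. The strength covariate and the set without the 2 dimmest arrays were chosen after seeing the data. The number of arrays limits these results (the DN1 controls are 2), as does signal over background for Cd8a A_52_P150547; the 1 call among the DN1 minus thymocyte effects is of that probe without the only treated DN1 array where it was well above background.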
